A study of Mus musculus with 24 samples.

Results

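Expression of 10 genes that build adherens junctions and desmosomes was compared across 24 mouse liver libraries. They were found by symbol (Cdh1, Cdh2, Ctnna1, Jup, Dsp, Dsg2, Dsc2, Pkp1, Pkp3 and Perp), and all 10 had a row in each of the 3 deposited tables, which list 31053, 25876 and 20729 genes. The first table holds primary hepatocytes (Pri-Hep) and hepatocyte organoids (Hep-Orgs) at passages P1, P5 and P10, and the second holds organoids of cholangiocytes (Cho-Orgs) from passages P0, P5 and P10. Each of these 7 groups had 3 libraries. The third holds Smart-Seq libraries of picked P0 Hep-Orgs of grape-like, intermediate and round-like shape, 1 library each. Hepatocytes were taken from adult wild-type BALB/c mice by a density gradient and removal of cells with EpCAM, and Cho-Orgs were grown from the cells that carry EpCAM. The passaged Hep-Orgs grew in Hep-Med with the Notch inhibitor DAPT and dexamethasone, and the picked P0 organoids in Hep-Med. Values are FPKM, that is, fragments scaled to gene length and to library size, which sets genes of unequal length on one scale.

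Adherens junctions and desmosomes are the anchoring contacts of epithelial cells. In the adherens junction, a classical cadherin such as E-cadherin binds its like on the next cell and is tied through catenins to actin. In the desmosome, desmogleins and desmocollins take the place of the cadherin, and plakoglobin, plakophilins and desmoplakin tie them to keratin filaments. Bile duct cells carry E-cadherin, while hepatocytes carry both E-cadherin and N-cadherin, and N-cadherin is also found in mesenchymal cells.

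By role, the adherens junction genes are Cdh1 (E-cadherin), Cdh2 (N-cadherin) and Ctnna1 (alpha-catenin, the link to actin). The desmosomal cadherins are Dsg2 and Dsc2, the forms typical of simple epithelia. The plaque genes are Jup (plakoglobin, shared by both junctions), Dsp (desmoplakin, the link to keratin) and the plakophilins Pkp1 and Pkp3. Perp encodes a membrane protein of desmosomes and is a target of p53 and p63. Values are per gene and do not separate transcript forms.

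Promoter sequence from RefSeq (GRCm38.p6) was matched for 2 of the 10 genes, both of them for plaque proteins that sit side by side in the desmosome. Only these 2 are shown, since no promoter sequence was matched for the other genes. Each is the 250 bases before the transcription start on the strand of the gene, with the GC box GGGCGG or its reverse complement CCGCCC in capitals.
Jup, chr11:100397791-100398040, minus strand: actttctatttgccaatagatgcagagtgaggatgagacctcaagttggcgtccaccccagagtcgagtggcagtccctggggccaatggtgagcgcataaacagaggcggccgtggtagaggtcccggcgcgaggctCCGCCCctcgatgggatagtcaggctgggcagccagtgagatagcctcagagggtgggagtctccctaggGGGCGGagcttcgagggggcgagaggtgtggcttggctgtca
Dsp, chr13:38151044-38151293, plus strand: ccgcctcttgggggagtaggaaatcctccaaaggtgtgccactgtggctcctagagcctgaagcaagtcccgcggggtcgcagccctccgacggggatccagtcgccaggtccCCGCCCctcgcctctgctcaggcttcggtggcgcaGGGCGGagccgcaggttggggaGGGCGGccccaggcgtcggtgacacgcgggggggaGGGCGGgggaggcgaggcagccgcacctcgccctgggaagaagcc
The GC box occurred 2 times in the Jup and 4 times in the Dsp window, and 32.7% of 32851 promoter windows of the same length held it on either strand. The E-box CACCTG, the sequence read by the repressors Snai1 and Zeb1, was searched with its reverse complement CAGGTG and was in neither window, against 17.2% of all windows. The grainyhead sequence AACCGGTT, which is its own reverse complement, was in neither, against 0.116% of all. None of these matches overlapped another. These are matches of letters and not sites of binding.

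Positions and depth were as follows. On GRCm38, per the coordinates in the first table, Cdh1 spans chromosome 8 from 106603351 to 106670246 on the plus strand. Perp lies on chromosome 10 from 18845020 to 18857073 (plus), Pkp1 on chromosome 1 from 135871395 to 135919207 (minus) and Pkp3 on chromosome 7 from 141078218 to 141090510 (plus). Jup lies on chromosome 11 from 100368958 to 100397763 (minus) and Dsp on chromosome 13 from 38151294 to 38198577 (plus). The other 4, Cdh2, Ctnna1, Dsg2 and Dsc2, are all on chromosome 18. The first table held 14068906 to 27160365 fragments per library. The depth of the other tables had to be estimated from the steps of low values and was about 37420000 to 40000000 fragments for Cho-Orgs and 39940000 to 40360000 for Smart-Seq. The labels Pri-Hep and Hep-Orgs go against the marker genes. Over these 12 libraries the summed level of 10 hepatocyte markers was 605 to 666 FPKM and that of 10 cholangiocyte markers was 3860 to 4080 FPKM. Spp1 made up most of the second sum, with a mean of 3144 FPKM in Pri-Hep and 3098 FPKM over all Hep-Orgs. Ttr made up most of the first, at 419 and 437 FPKM. Alb had 112 FPKM in both, and the cholangiocyte marker Cftr had 0.11 FPKM. Cyp2e1 and Asgr1, which define mature hepatocytes, were at 0 or under 0.04 FPKM in each library, while Krt19 lay between 229 and 247 FPKM. In Cho-Orgs at P0 the hepatocyte markers summed to 7190 to 8020 FPKM. The names Pri-Hep and Hep-Orgs are therefore used below only as labels. In bulk libraries, fewer cells of one type and less RNA per cell cannot be told apart.

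**Figure D1:**
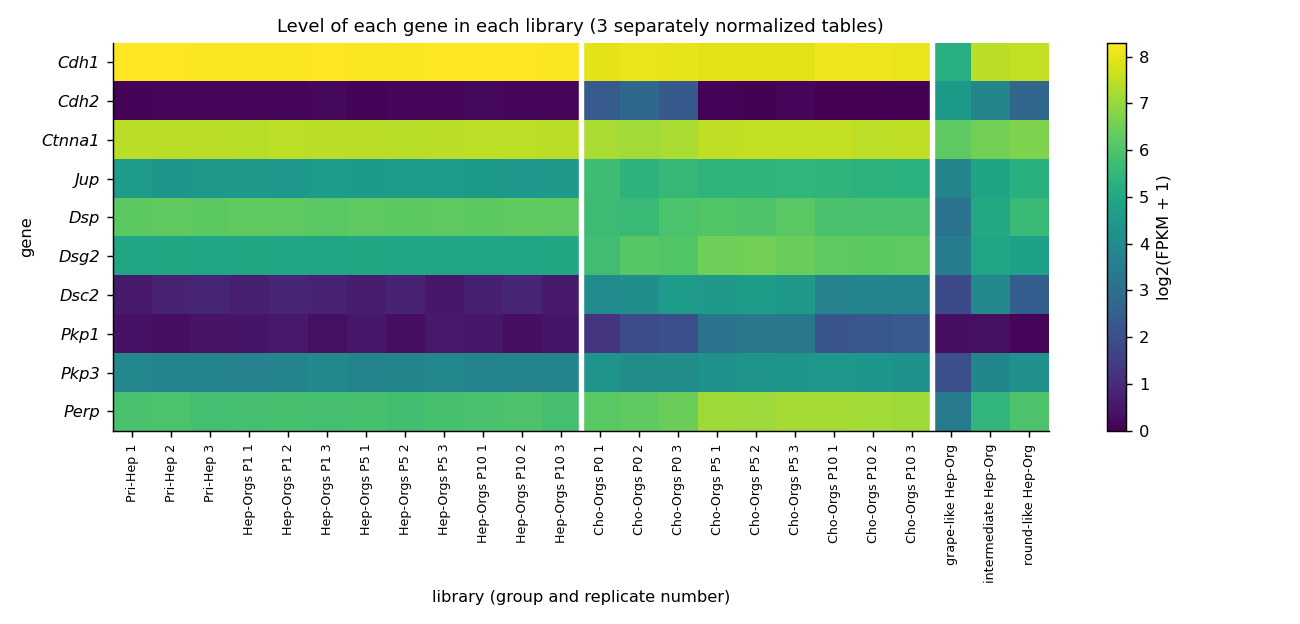
Heat map of the level of each of the 10 genes, as log2(FPKM + 1), in each of the 24 libraries, with white lines between the 3 separately normalized tables. Rows are even across the first 12 libraries, Cdh2 stands out at P0 of Cho-Orgs and in the Smart-Seq libraries, and the grape-like library is low in most rows.

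In the libraries labelled Pri-Hep and Hep-Orgs, the levels of these genes differed by little between groups, and none passed the test in any of 7 comparisons. Cdh1 was the highest of the 10, at 307, 313 and 302 FPKM in the Pri-Hep libraries. It was at 303, 303 and 309 FPKM at P1, at 306, 299 and 310 FPKM at P5 and at 307, 313 and 306 FPKM at P10. All 4 groups overlapped, and Cdh1 ranked between 88 and 100 among all genes of each library. Ctnna1 followed with 172 ± 1.11 FPKM (SD, n = 3) in Pri-Hep and 173 ± 2.31 FPKM (SD, n = 9) over all Hep-Orgs. Cdh1 and Ctnna1 thus stood well above the desmosomal genes on the scale of FPKM, while Cdh2, the other adherens junction gene, was the lowest of the 10.

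Among the desmosomal genes of the same 12 libraries, Dsp was highest, with 72.0 to 75.9 FPKM. Perp had 53.7 to 61.9, Dsg2 28.8 to 30.0, Jup 19.9 to 22.8 and Pkp3 11.93 to 13.98 FPKM. The order from Cdh1 to Pkp3 was the same in all 4 groups, and no 2 neighbours in it overlapped. Dsc2, Pkp1 and Cdh2 were near the limit of what was measured. Dsc2 had 0.452 to 0.837 FPKM, which rested on 42 to 94 fragments. Pkp1 had 0.236 to 0.474 FPKM, from 21 to 52 fragments. Cdh2 had 0.0562 to 0.131 FPKM, from 7 to 23 fragments, all above the floor of 3 fragments used here. The last 3 genes missed the filter of 1 FPKM in at least 3 libraries and were not tested.

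The 7 tested genes had log2 fold changes between -0.01 and 0.04 in all Hep-Orgs against Pri-Hep, on the scale of log2(FPKM + 1). Their 95% confidence intervals ran from -0.08 to 0.12 at the widest, with no adjusted p below 0.795 (limma, Benjamini-Hochberg over 10986 genes). Called genes made up 0% of all genes tested in that comparison (966 at an unadjusted p under 0.05). Against Pri-Hep, 0.0091% of all genes were called at P1 (911 unadjusted), 0.0091% at P5 (1184 unadjusted) and 0% at P10 (730 unadjusted). Between passages, 0% were called for P5 against P1 (436 unadjusted), 0% for P10 against P1 (986 unadjusted) and 0.0273% for P10 against P5 (1266 unadjusted). Of the 7 tested genes, 0 were called in each of these 7 comparisons by limma, 0 had an unadjusted p under 0.05, and limma-voom on the recovered fragments also called 0. Across the 6 comparisons between single groups, the interval of every tested gene stayed within -0.16 and 0.17.

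The largest of these differences were in Jup and Perp. Jup had 22.3, 19.9 and 21.1 FPKM in Pri-Hep and 22.1, 22.8 and 22.2 FPKM at P5, and its groups overlapped. P5 differed from Pri-Hep by 0.08 in log2 (standard error 0.04, adjusted p = 0.504, limma). Perp had 58.0, 53.7 and 57.3 FPKM at P5 and 59.7, 61.9 and 57.15 FPKM at P10, with a log2 fold change of 0.08 (adjusted p = 0.465, limma). The spread over the 12 libraries was small beside the level. The coefficient of variation was 1.41% for Cdh1, where counting alone gave 0.626%, and 1.42% for Dsg2, where counting alone gave 1.5%. It was 23.8% for Cdh2 against 27.2% from counting, so that the spread of Cdh2 was no wider than that of its few fragments.

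Other genes of the same junctions were not called in these libraries either. Of 13 further adherens junction genes, 13 were tested, and in all Hep-Orgs against Pri-Hep 0 were called by limma and 0 had an unadjusted p under 0.05, with a median log2 fold change of 0.02, where the median over all genes tested was 0.000583. Of 12 further desmosome and plakin genes, 5 were tested, 0 were called and 0 had an unadjusted p under 0.05, with a median of 0.0077. The same counts of 0 held for the 7 regulators and the 1 mesenchymal gene tested. Ppl, the plakin periplakin, was the highest of the second list at 83.5 ± 0.968 FPKM (SD, n = 3) in Pri-Hep. Ctnnb1 (beta-catenin), the highest of the first list, had 172 ± 0.963 FPKM there.

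Cho-Orgs differed in their junction genes between passages. From P0 to P5, N-cadherin fell to near 0 while Perp, Pkp1, Dsg2, Dsp, Ctnna1 and Dsc2 rose. From P5 to P10, Pkp1, Dsc2 and Dsg2 fell again, Cdh1 rose slightly, and Perp and Ctnna1 were not called. Some of these calls were lost in refits with other settings or fewer libraries. They were those of Dsp and Dsc2 from P0 to P5 and of Dsg2 and Cdh1 from P5 to P10. E-cadherin stayed within 241 to 276 FPKM in all 9 libraries. All 10 genes passed the filter here. Cdh2 passed it only through its P0 libraries, the group where it was high, so that its calls against P0 are no separate support for the fall. Calls were common among all genes: 56.6% of the 11593 genes tested were called for P5 against P0, 72.3% for P10 against P0 and 61.5% for P10 against P5.

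**Figure D2:**
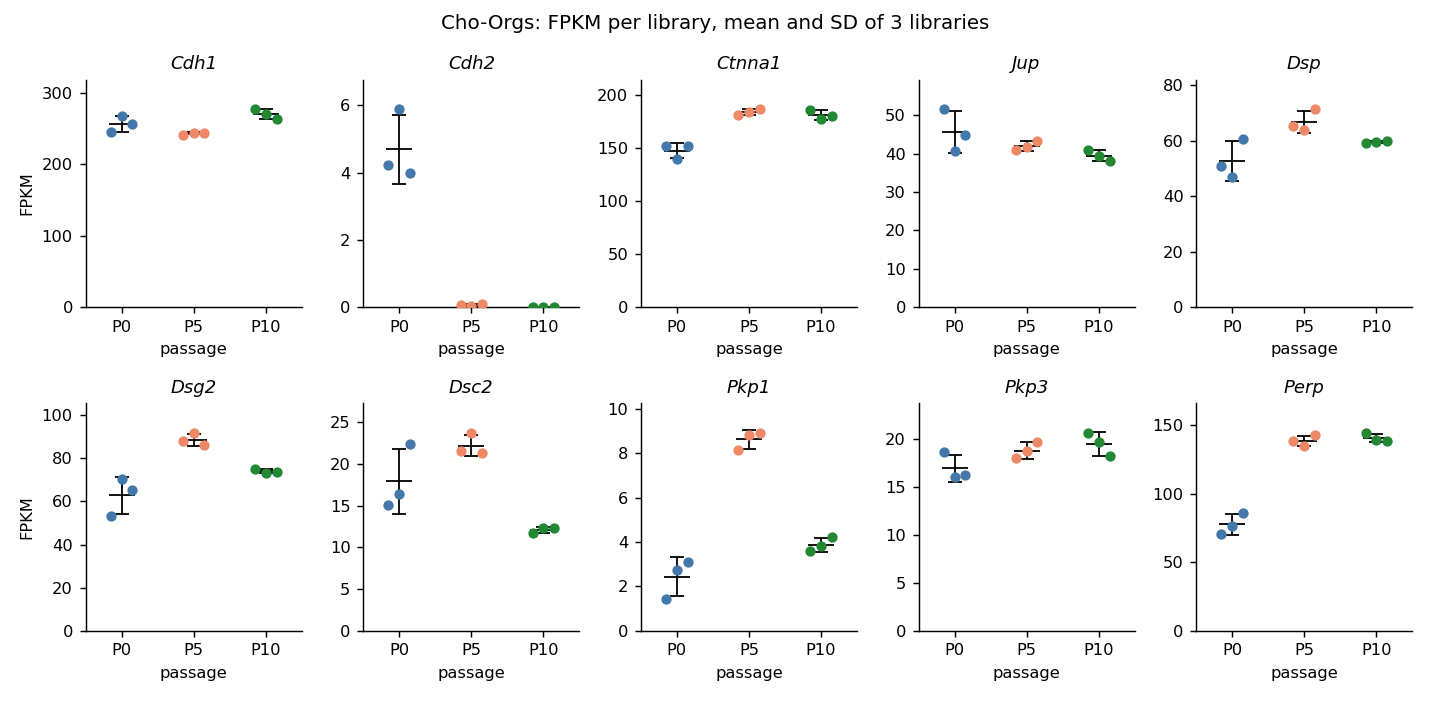
FPKM of each of the 10 genes in the 9 Cho-Orgs libraries by passage, 1 panel per gene with its own axis from 0. Points are libraries, and bars give the mean and SD of 3 libraries; Cdh2 is high only at P0, Perp steps up from P0 to P5, and Pkp1 peaks at P5.

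Cdh2 had 4.21, 5.88 and 3.99 FPKM at P0, 0.0558, 0.0421 and 0.0943 FPKM at P5, and 0, 0 and 0.00268 FPKM at P10. The 3 groups did not overlap. About 4508 fragments in all stood behind the P0 values, 59 behind P5 and 1 behind P10. By summed fragments P0 was 73.5 times P5 (95% confidence interval 56.8 to 96.7) and 4280 times P10 (768 to 169000), intervals that cover counting error only and rest on the estimated depth. The fitted log2 fold change, held down by the pseudocount of 1, was -2.41 at P5 (standard error 0.11, adjusted p = 1.94e-07, limma) and -2.49 at P10 (adjusted p = 5.15e-08). Between P5 and P10 the fit gave -0.09 (adjusted p = 0.526, limma), and -0.69 (adjusted p = 0.0295) with a pseudocount of 0.1.

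Some markers of other cells fell as Cdh2 did. Alb (albumin) had 5202, 4526 and 5254 FPKM at P0, 66.5, 91.3 and 80.7 FPKM at P5 and 0.534, 0.57 and 0.647 FPKM at P10. The summed level of the 10 hepatocyte markers went from 7190 to 8020 FPKM at P0 to 204 to 250 at P5 and 77.8 to 83.4 at P10, and 7 of the 8 tested were lower in each comparison with P0. Among all genes tested, 22.6% were lower at P5 and 31.3% at P10. The marker not called, Hnf4a, had 64.35, 60.93 and 56.36 FPKM on average at P0, P5 and P10. Cps1 and Serpina1a passed the filter only through their P0 libraries, so that their calls are no separate support for a fall. The 8 stellate and mesenchymal markers summed to 4.37 to 6.02 FPKM at P0, 0.432 to 0.611 at P5 and 0.0809 to 0.158 at P10. Of these, Rgs5, a pericyte gene, made up most, with 3.87, 4.89 and 3.73 FPKM at P0 and at most 0.0513 FPKM later, while Col1a1 was under 0.2 FPKM on average at every passage. The 6 endothelial markers summed to at most 0.304 FPKM in any Cho-Orgs library. The part of these cells in the fall of Cdh2 was not tested.

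By the rule of likeness, the 5 genes whose levels over the 9 Cho-Orgs libraries lay closest to Cdh2 were Rgs5, Slc2a2, Fabp4, Gfra1 and Pipox. The root mean square difference of their centred log2(FPKM + 1) from that of Cdh2 was 0.0718 to 0.137. Slc2a2, a glucose transporter of hepatocytes, had 4.69 FPKM at P0, 0.0613 at P5 and 0.0548 at P10 on average.

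**Figure D3:**
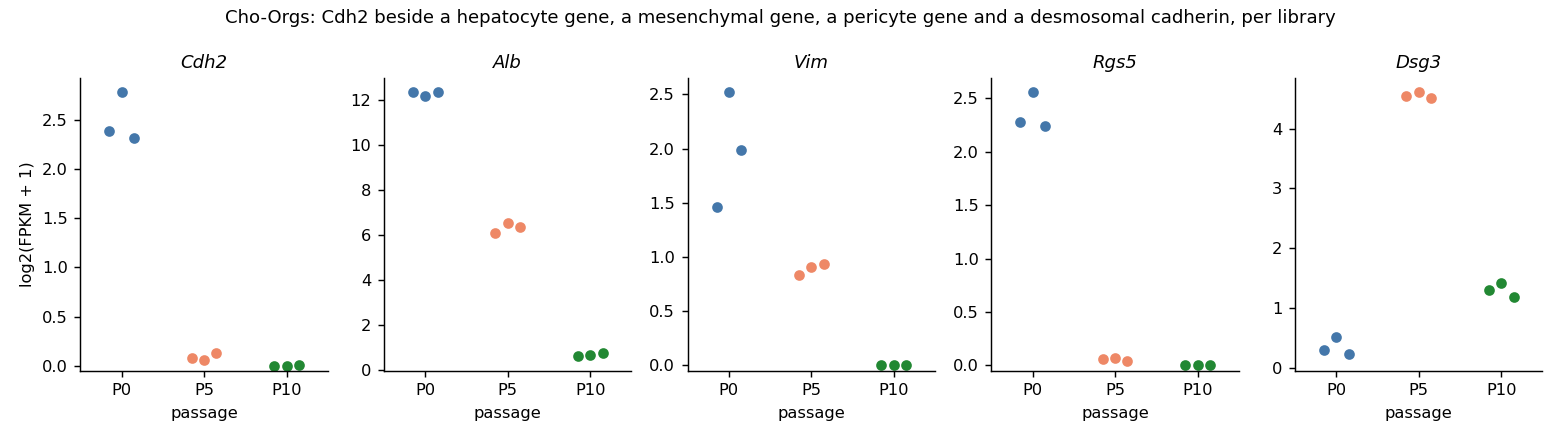
Level as log2(FPKM + 1) of Cdh2, Alb, Vim, Rgs5 and Dsg3 in each Cho-Orgs library by passage, 3 points per passage, each panel with its own axis. Cdh2 and Rgs5 are near 0 from P5 on, Alb and Vim fall in 2 steps, and Dsg3 is high at P5 and low on either side.

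E-cadherin moved little. Cdh1 had 245, 267 and 255.5 FPKM at P0, 241, 244 and 243 FPKM at P5 and 276, 270.5 and 263 FPKM at P10. The P10 libraries were all above the P5 libraries, by a log2 fold change of 0.15 (standard error 0.04, adjusted p = 0.015, limma). That call was lost without replicate 1, 2 or 3, where the values were 0.13, 0.15 and 0.17 and the highest adjusted p was 0.0878. Against P0 neither passage was called, with log2 fold changes of -0.07 (adjusted p = 0.189) at P5 and 0.08 (adjusted p = 0.145) at P10. With median-ratio size factors, P5 was lower than P0 by a called -0.16 (adjusted p = 0.0156). The ratio of Cdh1 to Cdh2 within a library was 45.4 to 64 at P0 and 2580 to 5790 at P5, and 2360 to 5460 in the 12 libraries labelled Pri-Hep and Hep-Orgs.

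Alpha-catenin rose by P5. Ctnna1 had 152, 140 and 152 FPKM at P0, 181, 184 and 186 FPKM at P5 and 186, 178 and 180 FPKM at P10. Every library at P5 and P10 was above those at P0. The rise in log2 was 0.32 at P5 (standard error 0.05, adjusted p = 0.000329, limma) and 0.29 at P10 (adjusted p = 0.000281), and between P5 and P10 it was -0.02 (95% confidence interval -0.13 to 0.08).

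Of the desmosomal cadherins, Dsg2 had 53.3, 70.2 and 65.2 FPKM at P0, 88.1, 91.7 and 86.2 FPKM at P5 and 75.2, 73.0 and 73.9 FPKM at P10. It was higher at P5 by 0.50 in log2 (standard error 0.09, adjusted p = 0.000848, limma) and then fell by 0.26 to P10 (adjusted p = 0.0262), a call that was lost without replicate 2 (-0.22) or 3 (-0.27) and with all genes above 0 tested (adjusted p = 0.0611). Its rise from P0 to P10, 0.24 (adjusted p = 0.0285), was lost in 5 of 11 refits (adjusted p up to 0.135), among them those without replicate 1 (0.12) and without replicate 3 (0.27). Dsc2 had 15.02, 16.3 and 22.3 FPKM at P0, 21.5, 23.7 and 21.3 FPKM at P5 and 11.7, 12.35 and 12.28 FPKM at P10. The P10 libraries were below all others, by -0.82 against P5 (standard error 0.12, adjusted p = 0.000242, limma) and -0.51 against P0 (adjusted p = 0.0033). The P0 and P5 libraries overlapped: the rise of 0.31 (adjusted p = 0.0471) was called, but not without replicate 1 (0.22) or replicate 2 (0.21), nor in 4 of the 8 other settings, and it was 0.50 without replicate 3. The ratio of Dsg2 to Dsc2 in a library was 2.92 to 4.3 at P0, 3.88 to 4.09 at P5 and 5.91 to 6.44 at P10. In the first table it was 34.4 to 64.8.

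Among the plaque genes, Pkp1 moved most. This plakophilin, typical of stratified epithelia, had 1.445, 2.76 and 3.09 FPKM at P0, 8.15, 8.83 and 8.92 FPKM at P5 and 3.60, 3.80 and 4.235 FPKM at P10. No groups overlapped. It rose by 1.52 in log2 to P5 (standard error 0.16, adjusted p = 4e-05, limma) and fell by 0.98 to P10 (adjusted p = 0.000542), where it was still 0.54 above P0 (adjusted p = 0.0127), and 0.35 above it without replicate 1 (adjusted p = 0.0071). As a share of the summed FPKM of the plakophilins Pkp1, Pkp2 and Pkp3, it was 3.23% to 7.72% at P0, 16% to 17.2% at P5 and 8.47% to 10.6% at P10. Pkp3 had 18.6, 16.1 and 16.3 FPKM at P0, 17.99, 18.75 and 19.7 FPKM at P5 and 20.6, 19.7 and 18.2 FPKM at P10, so that all 3 groups overlapped. At P5 its log2 fold change of 0.14 was not called (adjusted p = 0.111), but it was without replicate 1 (0.24) and on TPM (0.19). It was called for P10 against P0 alone, at 0.19 (adjusted p = 0.0326), and that call was lost in 5 of 11 refits, 2 of them without replicate 2 (0.15) or 3 (0.21).

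Dsp had 50.7, 46.7 and 60.7 FPKM at P0, 65.2, 63.8 and 71.2 FPKM at P5 and 59.2, 59.4 and 59.9 FPKM at P10. The P5 libraries were above all others. The rise to P5 was 0.34 in log2 (standard error 0.09, adjusted p = 0.00726, limma), and it was 0.33 (adjusted p = 0.0551) without replicate 1. For P10 against P0 the log2 fold change of 0.18 was not called (adjusted p = 0.0848), but it was with the replicate number as a block (adjusted p = 0.0469) and without replicate 3 (0.28, adjusted p = 0.0139), and it was 0.10 without replicate 2 (adjusted p = 0.38). For P10 against P5 it was -0.16 and not called (adjusted p = 0.13), although the groups did not overlap, and it was called with only these 2 groups in the fit (adjusted p = 0.00853). Jup had 51.5, 40.6 and 44.9 FPKM at P0, 40.9, 41.8 and 43.4 FPKM at P5 and 41.0, 39.4 and 38.1 FPKM at P10. It was called lower at P10 than at P0, by -0.20 (adjusted p = 0.0427), although the groups overlapped, and the call was lost in 6 of 11 refits (adjusted p up to 0.216), 2 of them without replicate 1 (-0.14) or 3 (-0.18). At P5 its log2 fold change was -0.11 (adjusted p = 0.249), and -0.20 (adjusted p = 0.0461) with median-ratio size factors. The ratio of Jup to Dsp was 0.739 to 1.02 at P0 and 0.61 to 0.693 later, beside 0.264 to 0.313 in the first table.

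Perp had 70.5, 76.3 and 86.1 FPKM at P0, 138, 135 and 143 FPKM at P5 and 144, 139 and 138 FPKM at P10. Every later library was above every P0 library. It was higher in log2 by 0.83 at P5 (standard error 0.07, adjusted p = 7.1e-06, limma) and 0.85 at P10 (adjusted p = 2.08e-06), or 1.78-fold and 1.81-fold. Between P5 and P10 the difference was 0.02 (95% confidence interval -0.13 to 0.17). Trp53, whose protein drives Perp in other settings, had 28.25 FPKM at P0, 26.3 at P5 and 55.5 at P10 on average, so that it was called higher at P10 (0.96, adjusted p = 5.16e-06) and not at P5 (-0.09, adjusted p = 0.393). Trp63 was listed at 0 in all Cho-Orgs libraries. These are RNA levels, and the part of p53 or p63 in the level of Perp was not tested. The 5 genes nearest to Perp over the 9 libraries were Prpf4b, Rock2, Limk1, Hspa4l and Adss, with root mean square differences of 0.0604 to 0.0695. Limk1 (LIM kinase) had 1.94, 3.83 and 4.07 FPKM and Prpf4b 8.915, 16.6 and 17.45 FPKM on average at P0, P5 and P10.

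Of the 10 genes, 7 were called for P5 against P0, 6 higher and 1 lower, with a median log2 fold change of 0.315 where all genes tested had 0.0617. With median-ratio size factors 5 were higher and 3 lower, and the share of higher calls over all genes went from 60% to 47.1%. For P10 against P0, 8 were called, 5 higher and 3 lower, with a median of 0.185 against 0.0688 over all genes, and with median-ratio size factors 3 were higher and 3 lower. For P10 against P5, 4 were called, 1 higher and 3 lower, with a median of -0.0875 against 0.00552. The groups did not overlap in 7 genes of the 10 for P5 against P0, in 6 for P10 against P0 and in 6 for P10 against P5. Over all genes tested, the groups did not overlap in 61.5%, 75.1% and 74.2%, where 56.6%, 72.3% and 61.5% were called. These 3 comparisons share libraries, so that their calls are not independent. The calls that held in every refit made were Cdh2, Ctnna1, Dsg2, Pkp1 and Perp for P5 against P0, Cdh2, Ctnna1, Dsc2, Pkp1 and Perp for P10 against P0, and Dsc2 and Pkp1 for P10 against P5. Cdh2, which passed the filter only through its P0 libraries, could not be tested in refits that left out a replicate, since it then missed the filter. It also missed the alternative filter of a mean FPKM of at least 5, as did Pkp1, so that both had fewer refits.

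**Figure D4:**
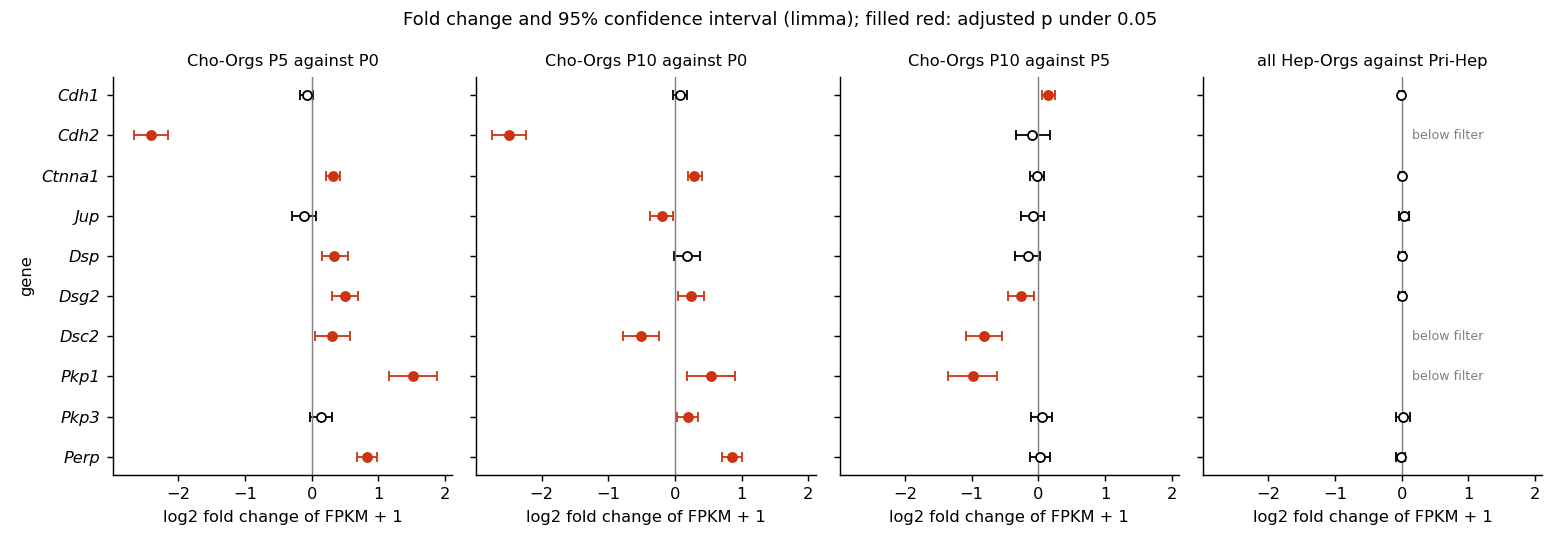
Log2 fold change of FPKM + 1 with its 95% confidence interval for the 10 genes in 4 comparisons, filled in red where the adjusted p was under 0.05 (limma) and marked as below filter where a gene was not tested. Cdh2 lies at -2.41 and -2.49 in the comparisons with P0, Pkp1 moves from 1.52 to -0.98, and the tested genes sit near 0 in all Hep-Orgs against Pri-Hep.

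Further junction genes of Cho-Orgs moved both ways. Of 13 other adherens junction genes, 4 were higher and 3 lower at P5 than at P0, 4 higher and 5 lower at P10 than at P0, and 2 higher and 6 lower at P10 than at P5. Their medians in log2 were 0.09, 0.02 and -0.06. Among all genes tested, 34% were higher and 22.6% lower at P5 than at P0. The shares were 41% and 31.3% at P10 against P0, and 31% and 30.5% at P10 against P5. Ajuba, an adaptor that binds alpha-catenin, rose in both steps, with 11.3 FPKM at P0, 20.9 at P5 and 38.9 at P10 on average (adjusted p = 1.15e-08 for P10 against P0, limma). Afdn (afadin) rose from 28.6 to 42.9 FPKM by P5 (0.57, adjusted p = 4.26e-06), and its partner Nectin1 fell from 5.63 to 2.98 FPKM (-0.74, adjusted p = 6.58e-05). Cdh3 (P-cadherin) had 5.01, 4.23 and 2.13 FPKM and was lower at P10 than at P5 (-0.74, adjusted p = 0.000337). Ctnnb1, the highest of the list, had 405 ± 18.7, 456 ± 20.5 and 480 ± 8.51 FPKM (SD, n = 3 each).

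Of 12 other desmosome and plakin genes, 6 passed the filter. At P5 against P0, 3 were higher and 1 lower, at P10 against P0, 4 were higher and 2 lower, and at P10 against P5, 1 was higher and 4 lower, with medians of 0.21, 0.41 and -0.21. In the same order of comparisons, 56.6%, 72.3% and 61.5% of all genes tested were called. Dsg3, the desmoglein of stratified epithelium, had 0.230, 0.436 and 0.167 FPKM at P0, 22.2, 23.6 and 21.9 FPKM at P5 and 1.45, 1.66 and 1.28 FPKM at P10. It rose by 4.21 in log2 to P5 (adjusted p = 1.31e-09, limma) and fell by 3.26 to P10 (adjusted p = 1.68e-08). Its peak fell at the same passage as that of Pkp1. Cdsn (corneodesmosin) had 0.263 FPKM at P0, 0.088 at P5 and 3.73 at P10 on average, with a rise of 2.12 in log2 from P5 to P10 (adjusted p = 2.9e-07). Cdsn passed the filter only through its P10 libraries, the group where it was high. Its call is therefore no separate support for the rise. Ppl rose from 36.5 to 56.5 FPKM by P5 (0.62, adjusted p = 1.18e-05) and had 59.6 FPKM at P10. Of 10 markers of squamous epithelium, 5 were tested, and all 5 rose by P5. At P10 against P5, 3 were higher and 2 lower, and at P10 against P0, 4 were higher and 1 was not called. The markers not tested, Krt5, Krt14, Krt1, Krt10 and Sprr1b, were at most 0.18 FPKM on average at each passage. Krt6a, a keratin of stratified epithelium, had 1.05, 9.265 and 2.89 FPKM at P0, P5 and P10 and fell by 1.40 in log2 to P10 (adjusted p = 1.21e-05, limma), and Krt13 had 33.35, 85.66 and 22.04 FPKM and fell by 1.91 (adjusted p = 0.000277). The summed level of the 10 markers was 131 to 202 FPKM at P0, 263 to 316 at P5 and 957 to 1010 at P10, most of it at P10 from Sprr1a, with 121.4, 183.6 and 801.6 FPKM. Whether squamous cells had a part in the levels of Pkp1, Dsg3 or Cdsn was not tested.

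Of 15 regulators of cadherin and epithelial genes, 7 passed the filter in Cho-Orgs. At P5 against P0, 3 were higher and 0 lower, at P10 against P0, 2 were higher and 1 lower, and at P10 against P5, 2 were higher and 3 lower. The shares of all genes called, to set beside these and the later counts of this paragraph, were 56.6%, 72.3% and 61.5%. Grhl1, a grainyhead factor of epithelia, rose at each step, with 1.96, 4.35 and 5.68 FPKM (adjusted p = 5.32e-07 for P10 against P0, limma). Klf5 had 98.5, 133 and 107 FPKM and was higher at P5 (0.44, adjusted p = 0.00133). The repressors Snai1, Snai2, Zeb1, Zeb2, Twist1 and Twist2 were all under 0.2 FPKM in every Cho-Orgs library and were not tested. Of 7 mesenchymal genes, 3 were tested: Fn1 fell from 128 to 13.3 FPKM by P5 (-3.16, adjusted p = 3.92e-07), Vim fell from 3.155 to 0.854 FPKM (-1.10, adjusted p = 0.00147) and was listed at 0 at P10, and S100a4 was higher at P10 than at P0 (1.77, adjusted p = 0.000454). Vim passed the filter only through its P0 libraries, the group where it was high. Its call against P0 is therefore no separate support for its fall. Acta2, Cdh11, Tagln and Col1a1 were at most 0.525 FPKM on average at each passage. Fn1 does not mark mesenchymal cells alone here, since it had 79.7 FPKM in Pri-Hep, where Vim had 0.15 FPKM. All 10 proliferation genes fell in each of the 3 comparisons, with summed levels of 350 to 507 FPKM at P0, 194 to 199 at P5 and 81 to 88.3 at P10. The 7 macrophage and blood markers, of which 2 were tested, summed to 43.1 to 48.9, 72.1 to 77.3 and 10.1 to 10.5 FPKM at P0, P5 and P10. At P5 and P10 that sum was nearly all Cd68, a lysosomal protein. Cd68 had 30.35, 74.46 and 9.531 FPKM at P0, P5 and P10 and rose by 1.27 in log2 to P5 (adjusted p = 1.46e-06, limma). Lyz2 (lysozyme), the other gene tested, had 13.17 FPKM at P0 and was listed at 0 later, and Adgre1, C1qa, Ptprc, Csf1r and Clec4f were all under 1 FPKM on average at each passage. The 10 cholangiocyte markers summed to 5160 to 6570 FPKM at P0, 3560 to 3690 at P5 and 3410 to 3440 at P10. Of these, 3 were higher and 3 lower at P5 than at P0, 4 higher and 4 lower at P10 than at P0, and 3 higher and 4 lower at P10 than at P5. Krt7, a keratin of bile ducts, had 248, 688.7 and 919.7 FPKM and was higher at P10 than at P0 by 1.89 in log2 (adjusted p = 5.57e-09). Epcam had 450.7, 489.8 and 259.3 FPKM and fell by 0.91 from P5 to P10 (adjusted p = 8.43e-07), and Cftr, a chloride channel, had 35.11, 26.91 and 1.035 FPKM and fell by 3.78 (adjusted p = 3.4e-06). Spp1 (osteopontin) fell by 2.17 to P5 (adjusted p = 6.86e-07), from 3682 to 804.9 FPKM. The part of these markers' cells in the levels of the junction genes was not tested.

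The Smart-Seq libraries of P0 Hep-Orgs differed in both kinds of junction gene. There was 1 library per shape, so that no difference has a replicate check, and values are given without a test. The grape-like library was lower than the round-like one by at least 1 in log2 in 6 of the 10 genes (Cdh1, Dsp, Dsg2, Jup, Pkp3 and Perp) and higher by as much in Cdh2. Over the 12595 genes at 1 FPKM or more in any of the 3 libraries, 8.82% were lower and 12.9% higher by that step, with a median of -0.13. The median was -1.49 over the 9 members that reached 1 FPKM in either library, which leaves out Pkp1.

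**Figure D5:**
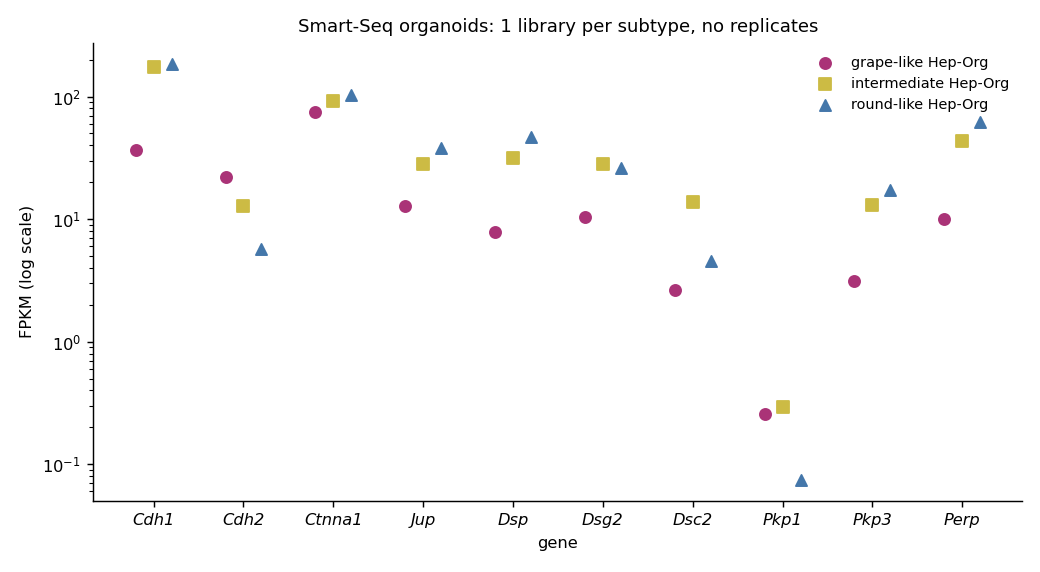
FPKM on a log axis of the 10 genes in the Smart-Seq libraries of the 3 shapes, 1 point per library and no replicates. Cdh1 is 36.6 FPKM in the grape-like and 186 FPKM in the round-like library, Cdh2 runs the other way from 22.1 to 5.71 FPKM, and Dsc2 is highest in the intermediate library.

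By shape, Cdh1 had 36.6 FPKM in the grape-like, 174 in the intermediate and 186 in the round-like library. Cdh2 had 22.1, 12.7 and 5.71 FPKM in the same order. The ratio of E-cadherin to N-cadherin was therefore 1.66, 13.7 and 32.6, all below the 45.4 of the lowest Cho-Orgs library at P0. Taken on FPKM + 1, the grape-like library differed from the round-like one in log2 by -2.32 for Cdh1 and 1.78 for Cdh2. Taken on fragments, the difference was -2.35 for Cdh1 (95% counting interval -2.39 to -2.31) and 1.95 for Cdh2 (1.88 to 2.02). These intervals cover counting error in amplified cDNA and not the spread between organoids. Ctnna1 differed least of the well-measured genes, with 74.4, 91.2 and 103 FPKM and a log2 ratio of -0.46.

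Most desmosomal genes were ordered as Cdh1 was. In the same order of shapes Dsp had 7.86, 31.4 and 47.1 FPKM, and Perp had 10.1, 43.4 and 61.8 FPKM. Jup had 12.8, 27.96 and 37.7 FPKM, and Pkp3 had 3.115, 13.15 and 17.2 FPKM. All 4 were lowest in the grape-like and highest in the round-like library, which differed in log2 by -2.44, -2.50, -1.49 and -2.14. Jup was above Dsp in the grape-like library, by a ratio of 1.62, and below it in the others, at 0.89 and 0.801. In the 12 libraries labelled Pri-Hep and Hep-Orgs that ratio was at most 0.313.

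The desmosomal cadherins did not keep that order. Dsg2 had 10.35, 28.1 and 25.9 FPKM. Dsc2 had 2.62, 13.9 and 4.59 FPKM, so that the intermediate library was highest in both. The log2 ratio of intermediate to round-like was 1.41 for Dsc2 and 0.11 for Dsg2. Pkp1 was scarce, with 52, 59 and 15 fragments and at most 0.292 FPKM. Its counts put the grape-like library above the round-like one by 1.79 in log2 (counting interval 0.96 to 2.62).

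Of the 10 genes, 2 (Cdh2 and Dsc2) were higher by at least 1 in log2 in the intermediate than in the round-like library and 0 were lower, where 3.85% of all genes were higher and 2.54% lower. Against the intermediate library, the grape-like one was lower by that step in 7 genes (Cdh1, Dsp, Dsg2, Dsc2, Jup, Pkp3 and Perp) and higher in 0, where 7.15% of all genes were lower and 9.71% higher. These comparisons share libraries.

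Some other genes of the same junctions were also lower in the grape-like library. Of 13 other adherens junction genes, 4 (Cdh3, Afdn, Ajuba and Plekha7) were lower by at least 1 in log2 than in the round-like library, 0 were higher by that step and 9 lay between, with a median of -0.83. Nectin4, a nectin of epithelia, lay above the round-like value by 0.35 in log2, and Lima1, an actin-binding protein, by 0.04. Cdh3 had 0.0866 FPKM against 5.83. Vcl (vinculin) was nearly level, at 26.7 and 25.02 FPKM. Of the other desmosome and plakin genes, 7 had a row, 4 reached 1 FPKM in either library and 3 (Pkp2, Evpl and Ppl) were lower by that step. Ppl had 4.01 FPKM in the grape-like and 27.1 FPKM in the round-like library.

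Regulators and markers of other cells also differed between the shapes, not all in the same order. Among 11 regulators that reached 1 FPKM in either library, Snai1, Snai2, Zeb2 and Twist1 were higher by at least 1 in log2 in the grape-like than in the round-like library, and Grhl2, Ovol2 and Klf5 were lower. Snai1, a repressor of E-cadherin, had 14.6 FPKM in the grape-like, 5.59 in the intermediate and 4.38 in the round-like library. Grhl2, an activator of E-cadherin, had 0.581, 6.24 and 10.1 FPKM, and Klf5 had 1.89, 15.1 and 39.1 FPKM. The 10 hepatocyte markers summed to 5790, 10300 and 1390 FPKM in that order. The 7 mesenchymal genes summed to 787, 291 and 176 FPKM, with Vim at 281, 78.7 and 59.7 FPKM. The 8 stellate and mesenchymal markers summed to 1540, 379 and 328 FPKM and the 7 macrophage and blood markers to 7930, 2330 and 1220 FPKM. Endothelial markers, 6 in number, summed to 71.3, 29.3 and 12.6 FPKM. The 10 cholangiocyte markers summed to 879, 3470 and 2870 FPKM, and 9 of them were lower by at least 1 in log2 in the grape-like than in the round-like library. The part of hepatocytes and of stellate, endothelial, blood or bile duct cells in the levels of Cdh1, Cdh2 and the desmosomal genes was not tested, and with 1 library per shape it cannot be told apart from the shape.

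Set side by side without a test, since the 3 tables were normalized apart, the tables differed in which partner genes were present. Dsc2 and Pkp1 were at most 0.837 and 0.474 FPKM in the libraries labelled Pri-Hep and Hep-Orgs and at least 11.7 and 1.445 FPKM in Cho-Orgs. Cdh2 was at least 3.99 FPKM in Cho-Orgs at P0 and at least 5.71 FPKM in the Smart-Seq libraries, and at most 0.131 FPKM in the rest. Cdh1 and Ctnna1 were the top pair of the 10 genes in every group. E-cadherin led in 9 of the 10 groups, and alpha-catenin in the grape-like library.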

How the data were processed

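Libraries were mapped to groups by their labels. The deposited values are FPKM in 3 tables; according to the submitters' processing notes the authors used featureCounts 2.0.3, edgeR 3.40.2 and mm10, and per the methods 1 scaling factor per library. The aligner is not given in the sources used here. In the first table FPKM times the listed gene length gave whole fragments (100% within 0.05), and 29782 of its 31053 identifiers had the coordinates of GENCODE M21. Depth in the other tables is approximate. Here each table was fitted on its own with limma 3.58.1 in R 4.3.3 on log2(FPKM + 1), by lmFit and trended eBayes with two-sided p-values, all groups together, for genes with at least 1 FPKM in at least 3 libraries, which were 10986 and 11593 genes. P-values were adjusted by Benjamini-Hochberg over all genes tested, with a threshold of 0.05. Tables were prepared with Python 3.11.15, pandas 2.3.3 and scipy 1.17.1. Smart-Seq ratios have 95% counting intervals and no test. PCR copies are not independent molecules, so intervals and the floor of 3 fragments cover counting error only. The fits were also run on simulated data, in which the spread between libraries, apart from counting error, was set the same for all genes. That spread was not taken from these libraries, so the runs do not show how many of the calls made here are right.

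The members and lists were chosen with earlier results of these data known. The 10 members are always named. From 4 further lists (adherens junction, desmosome and plakin, regulator and mesenchymal genes) every count is given, and genes past the threshold or with the highest level of their list may be named. Marker lists covered hepatocytes, cholangiocytes, stellate, endothelial, macrophage and blood cells, squamous epithelium and proliferation. In addition, Vcl, Nectin4, Lima1, Cdh3, Plekha7, Pkp2, Evpl, Ovol2, the Snai, Zeb and Twist genes, Grhl2, Trp63 and single markers were named after their values were seen. Likeness was taken for the members with the highest and lowest log2 fold change from P0 to P10.

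A figure legend of the study assigns replicate numbers to 3 mice, while its methods speak of separate cultures, so that p-values may measure only the spread between cultures. By the legend the numbers pair the libraries. Deviations from group means correlated by -0.076 to 0.055 over the 18 same-number pairs of the first table and by -0.074 to 0.12 over the 9 pairs of Cho-Orgs. No libraries of the first table had the same counts. The chi-square per gene, which is 1 by counting alone, was 1.84 to 4.88 (median 2.63) between libraries of different groups. Within a group it was 1.97 to 3.29 (median 2.29). Libraries made from the same RNA or culture could also differ in this way, so that the check does not show separate sources. Alternatives were another pseudocount, filters, scalings, eBayes without trend, a replicate block, fits of only the groups compared, leaving out each replicate number, and limma-voom on recovered fragments.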

Additional observations from a re-analysis of the deposited data

How the results depend on the processing

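Of 8 genes called for P10 against P0 in Cho-Orgs, 5 were called with all genes above 0 FPKM tested and 5 with only the groups compared in the fit. When each replicate number was dropped in turn, there were 5 to 6 called genes for P5 against P0, 5 to 6 for P10 against P0 and 2 to 3 for P10 against P5, and Cdh2 then missed the filter, since fewer libraries of P0 were left. The other counts of called genes stayed within 1.5 times, and among Pri-Hep and Hep-Orgs 0 of the tested genes were called in any refit made.

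With the replicate number as a block for the pairing, 7 genes were called for P5 against P0, 9 for P10 against P0 and 4 for P10 against P5, and Dsp was the one member whose call changed. Of the single fold changes recomputed in Cho-Orgs, 277 stayed on their side of the threshold, 29 lost the call and 8 gained one, and none of the called ones reversed. Among values with no call in Cho-Orgs and in all Hep-Orgs against Pri-Hep, 185 stayed uncalled and 9 of these had the other sign. Of the Smart-Seq ratios recomputed, 45 moved by less than their counting interval and 45 by more.

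With 3 libraries per group, small differences such as those of Jup, Pkp3 and Cdh1 in Cho-Orgs sit near the threshold. The scarce genes Cdh2, Pkp1 and Dsc2 rest on few fragments in the first table, and depth in the Cho-Orgs and Smart-Seq tables is estimated.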
